A study of Mus musculus with 62 samples.

Results

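The fast myosin heavy chain cluster is a run of 6 neighbouring genes on mouse chromosome 11, Myh3, Myh2, Myh1, Myh4, Myh8 and Myh13, all on the plus strand (chr11:67078273-67371587, GRCm38.p6, the mm10 assembly). Its regions were taken as every peak whose nearest gene was one of the 6, in 16 lists of H3K27ac or H3K4me2 peaks and 4 lists of changed H3K27ac, together with every other chromosome 11 peak within 50 kb of those peaks. This gave 250 of 601616 regions in the 20 lists, 133 named for a myosin gene and 117 neighbours. The window they span, chr11:67022673-67466845, is 444 kb long.

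Chromatin immunoprecipitation sequencing (ChIP-seq) of acetylated lysine 27 of histone H3 (H3K27ac, which marks enhancers and promoters in use) and dimethylated lysine 4 (H3K4me2, which marks them whether or not they are in use) was performed in 8 groups of 2 replicates per mark. All mice were male and labelled C57BL/6. Sedentary wild-type mice gave extensor digitorum longus (EDL), quadriceps (Quad), soleus (Sol) and diaphragm (Dia). A second pair of Quad groups came from mice kept sedentary (Sed) or given 4 weeks of voluntary wheel running from 8 weeks of age (Ex), and a further pair from sedentary wild-type littermates (Wt) and PGC1a Tg(+) mice (mTg), in which the muscle creatine kinase promoter drives constitutive Pgc1a expression in skeletal muscle. Each Quad sample was 1 muscle of 1 animal, whereas EDL, Sol and Dia samples each pooled 3 animals. All samples were whole muscle, in which fewer fibers of a type and less signal per fiber cannot be told apart.

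Myosin heavy chain is the motor protein of the thick filament, and the isoform a fiber makes sets how fast it shortens. Myh2, Myh1 and Myh4 encode the adult isoforms of type IIa, IIx and IIb fibers, which run from fast oxidative to fast glycolytic. Myh3 and Myh8 encode the embryonic and perinatal isoforms, and Myh13 an isoform of extraocular muscle. EDL and Quad are mainly fast glycolytic muscles, whereas Sol and Dia hold more oxidative fibers.

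The promoters are shown first because 4 of the 6 genes share sequence there. The 250 bases before each RefSeq gene start are given on the plus strand, with capitals marking runs of at least 12 bases common to 3 or more of the 6 promoters. They are the windows chr11:67170777-67171026 (Myh2), chr11:67199852-67200101 (Myh1), chr11:67237562-67237811 (Myh4) and chr11:67276874-67277123 (Myh8).
Myh2: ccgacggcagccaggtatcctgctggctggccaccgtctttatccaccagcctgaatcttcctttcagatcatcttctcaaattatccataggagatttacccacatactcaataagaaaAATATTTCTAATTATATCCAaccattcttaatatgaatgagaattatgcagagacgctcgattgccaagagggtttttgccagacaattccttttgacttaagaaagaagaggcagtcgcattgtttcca
Myh1: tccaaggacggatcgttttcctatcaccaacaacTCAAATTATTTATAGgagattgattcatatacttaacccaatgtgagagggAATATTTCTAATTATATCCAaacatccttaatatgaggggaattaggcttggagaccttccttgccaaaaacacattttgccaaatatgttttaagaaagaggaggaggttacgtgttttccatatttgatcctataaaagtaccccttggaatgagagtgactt
Myh4: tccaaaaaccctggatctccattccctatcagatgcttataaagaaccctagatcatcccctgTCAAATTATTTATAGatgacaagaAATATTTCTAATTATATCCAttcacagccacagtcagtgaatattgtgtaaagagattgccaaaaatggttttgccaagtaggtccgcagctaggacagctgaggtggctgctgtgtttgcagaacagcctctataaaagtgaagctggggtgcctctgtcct
Myh8: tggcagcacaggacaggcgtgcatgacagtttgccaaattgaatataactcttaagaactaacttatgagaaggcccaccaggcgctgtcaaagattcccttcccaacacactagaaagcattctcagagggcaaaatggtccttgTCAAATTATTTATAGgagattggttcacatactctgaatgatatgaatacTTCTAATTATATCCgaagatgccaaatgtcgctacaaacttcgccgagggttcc
A 14-base run, TTCTAATTATATCC, stood 125 bases before the start of Myh2, 160 before Myh1, 158 before Myh4 and 54 before Myh8. Of 32851 RefSeq mouse promoters of 300 bases (250 before to 50 after the start), 4 held it on either strand, and they were these. In Myh2, Myh1 and Myh4 the run extended to 20 bases, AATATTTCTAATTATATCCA. A 15-base run, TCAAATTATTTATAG, was common to Myh1, Myh4 and Myh8 and held a match to the MEF2 consensus, which 3.19% of all promoters contained. The Myh2 promoter had no such match. Neither run occurred in the promoters of Myh3 or Myh13.

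The promoters also differed in short motifs counted on both strands over the 300 bases. E-box letters (CANNTG, read by myogenic factors) occurred 3 times at Myh4 and not at Myh2 or Myh1, against 72.3% of all promoters with at least 1. GGAAA, the core read by NFAT factors, occurred 3 times at Myh1, once at Myh2 and not at Myh4, and 61.3% of promoters held it. A CArG box, the serum response factor motif, was found at Myh4 and Myh13 and in 1.63% of all promoters. Such matches describe these letters in this window only.

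Depth in the 32 histone libraries ranged from 6.41 to 24.2 M tags. Deposited levels are log2 values normalized within each list, so they were compared between genes of 1 library but not between lists. They came from a DESeq2 step whose transform is not given in the sources used here. Some such transforms shrink differences, so linear shares and losses below are on the deposited scale and are not folds of tags. With 2 libraries against 2, the smallest two-sided exact permutation p is 0.333. Muscle identity was checked on 5 fiber markers (Acta1, Ckm, Des, Mb and Ttn), which had H3K27ac peaks in all 8 groups, with a median best-peak percentile (level per kb, within the list) from 81.0 in Ex to 97.9 in EDL. In the mTg and Wt groups the part of the signal called at Myh1 went in opposite directions for the 2 marks, between lists normalized separately. No H3K4me2 peak was called for Myh1 in the list labelled mTg, so its level there was not measured. The H3K4me2 libraries of these 2 groups are called by their labels below.

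The first question was which genes of the cluster carried active marks at all. H3K27ac peaks named for Myh2, Myh1 or Myh4 were called in 8 of 8 groups. Myh3 had no H3K27ac peak in any group, Myh8 had 1 in each of Sol, Wt and mTg, and Myh13 had 1 in Dia and 1 in mTg. These 5 peaks were 0.629 to 3.90 kb wide and lay at least 8 kb from the start of the gene that names them. For H3K4me2, Myh3 had a single 0.646-kb peak in Dia, Myh8 a single 0.501-kb peak in EDL, and Myh13 peaks of at most 1203 bases in 7 groups. Thus the embryonic, perinatal and extraocular genes were close to bare of both marks, and no H3K27ac peak lay between the starts of Myh8 and Myh13 in any group.

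**Figure D1:**
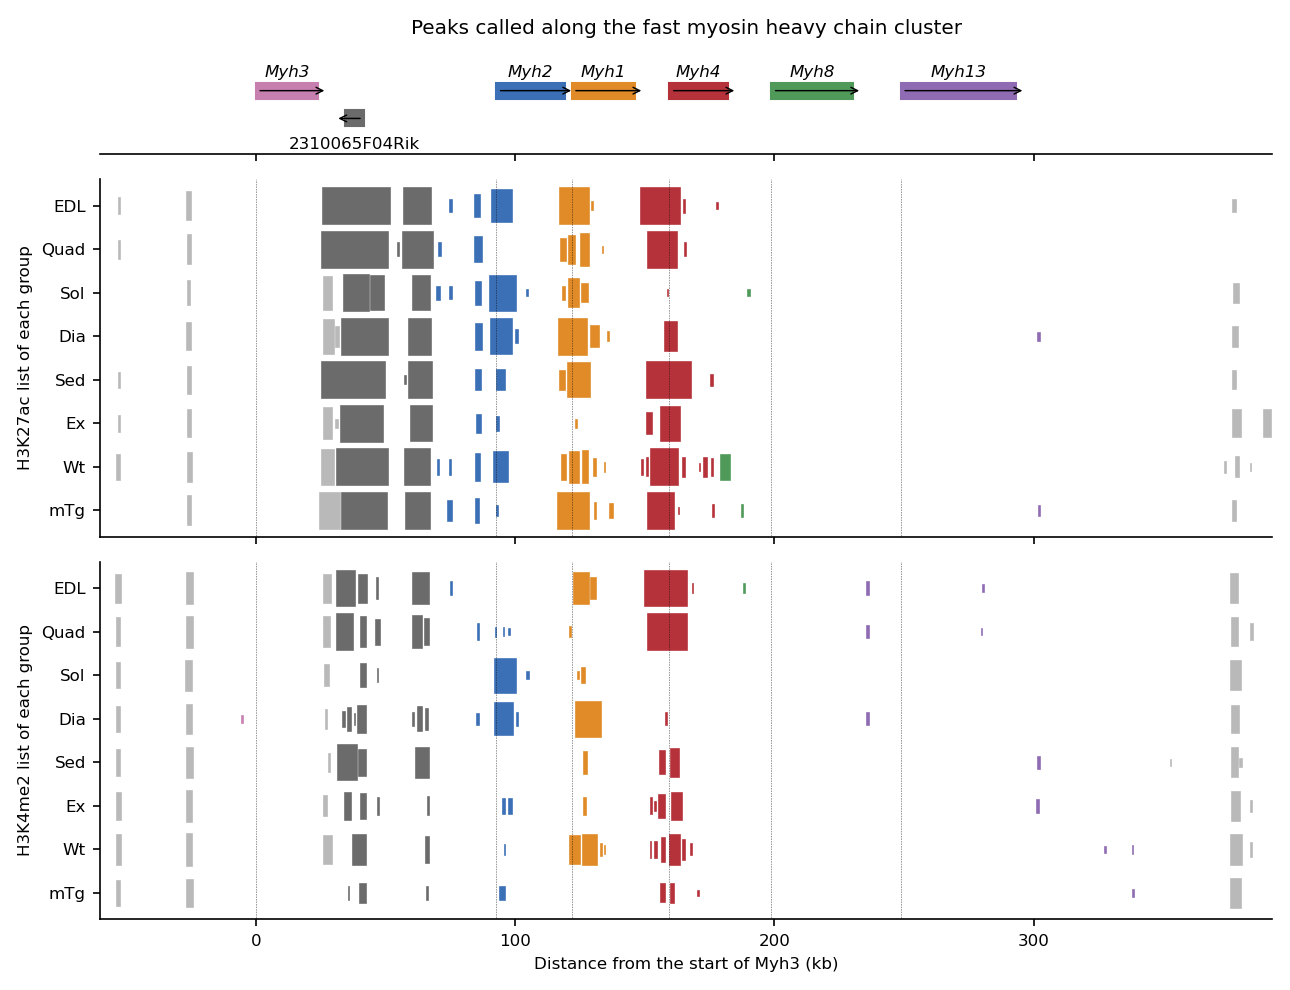
Peaks called along the cluster, plotted as distance from the start of Myh3 in kb, with gene bodies and their direction above and 1 row per group for each mark. Bars are peaks to scale, coloured by the gene that names them (grey for the neighbouring genes outside the cluster) and taller for a higher percentile of level in the list. H3K27ac sits over 2310065F04Rik in all 8 groups, shifts among Myh2, Myh1 and Myh4, and is absent between the starts of Myh8 and Myh13.

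In every group but Sol, the widest acetylated stretch of the cluster lay over no myosin gene. It covered 2310065F04Rik, a noncoding RNA gene on the minus strand between Myh3 and Myh2 (chr11:67112461-67120080). In Quad it was 1 peak of 25.97 kb, chr11:67103399-67129364, with levels of 12.82 and 12.70 (log2, each library), and it ranked 4th of 40949 peaks by score. A score counts the tags of the whole peak, so ranks by score here and below rise with width. In EDL the peak was 26.3 kb wide with levels of 13.16 and 13.18 and ranked 8th of 35750. Both EDL and Quad thus placed it among their strongest acetylated regions. The rank of the strongest peak over this gene was 14 in Sed, 20 in Wt, 27 in mTg, 38 in Dia, 130 in Ex and 381 in Sol, where the peak was 9.83 kb wide with levels of 10.65 and 10.36. A further peak 7117 to 12003 bases wide, between that gene and Myh2, accompanied it in every group. Between the starts of Myh3 and Myh2, H3K27ac covered 31.4 kb (Ex) to 42.9 kb (Quad) of 92.8 kb, so this interval stayed marked in all 8 groups whichever adult gene carried the signal. H3K4me2 there was narrower, with the widest peak of the noncoding gene at 7.62 kb. In Sol the widest H3K27ac peak was the 10.4-kb one over Myh2.

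Division of the signal among the 3 adult fast genes was the main difference between muscles. The log2 levels of the peaks named for each gene were turned to a linear scale, summed, and given as a share of the 3 genes together within each library. Such a sum grows with the length called as a peak, so the share of the signal per kb of called length is given beside it. In Quad, Myh4 took 75.2% and 69.9% of the H3K27ac signal in the 2 libraries, Myh1 took 20.2% and 24.4%, and Myh2 took 4.61% and 5.71%. In Sol, Myh2 took 74.8% and 77.2%, Myh1 took 24.3% and 22.3%, and Myh4 took 0.921% and 0.521%. The order of the 3 genes was therefore inverted between these muscles, and no library of one overlapped the other for Myh4 or Myh2. Called length went with the shares, at 12.1 kb for Myh4 in Quad and 0.501 kb in Sol and at 3.98 and 15.7 kb for Myh2. Per kb, Myh4 took 60.4% ± 4.56 in Quad and 15.4% ± 5.06 in Sol, and Myh2 took 13.1% ± 1.66 and 52.7% ± 4.77 (SD, n = 2 each), so the order was still inverted. The lists were normalized separately, so the difference was not tested.

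For Myh4 and Myh2 the other muscles fell between, whereas Myh1 was higher in both. In EDL, Myh4 took 47.6% and 56.0%, Myh1 35.4% and 30.5%, and Myh2 16.9% and 13.4%. In Dia, Myh1 led with 54.4% and 54.9%, followed by Myh2 with 37.9% and 35.4% and Myh4 with 7.78% and 9.70%. Dia was thus the one unperturbed muscle in which the IIx gene carried the largest share, and per kb it took 42.5% ± 0.52 there (SD, n = 2). In EDL the per-kb shares of Myh4, 43.1% ± 5.87, and Myh1, 37.3% ± 3.12, overlapped between libraries (SD, n = 2). Sedentary quadriceps was profiled in 3 separate groups, and the mean Myh4 share was 72.5% ± 3.74 in Quad, 67.3% ± 3.34 in Sed and 66.1% ± 1.06 in Wt (SD, n = 2 each).

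H3K4me2 had the same leading gene as H3K27ac in each of the 4 muscles. Myh4 took 94.8% ± 0.24 in Quad and 70.0% ± 2.22 in EDL, Myh2 took 88.7% ± 1.90 in Sol, and Myh1 took 59.5% ± 0.12 in Dia, where Myh2 took 38.1% ± 0.22 (SD, n = 2 each). Sol had no H3K4me2 peak named for Myh4, so its share is listed at 0. By summed signal the marks differed at Myh1 in Quad, which took 22.3% of H3K27ac and 1.1% of H3K4me2, less than the 4.06% of Myh2. The single H3K4me2 peak of Myh1 there was 0.501 kb wide, and the difference went with this length. Per kb, Myh1 in Quad took 26.5% ± 2.90 of H3K27ac and 22.2% ± 1.60 of H3K4me2 (SD, n = 2 each). Myh2 took 16.2% ± 0.12 of H3K4me2 per kb (SD, n = 2).

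**Figure D2:**
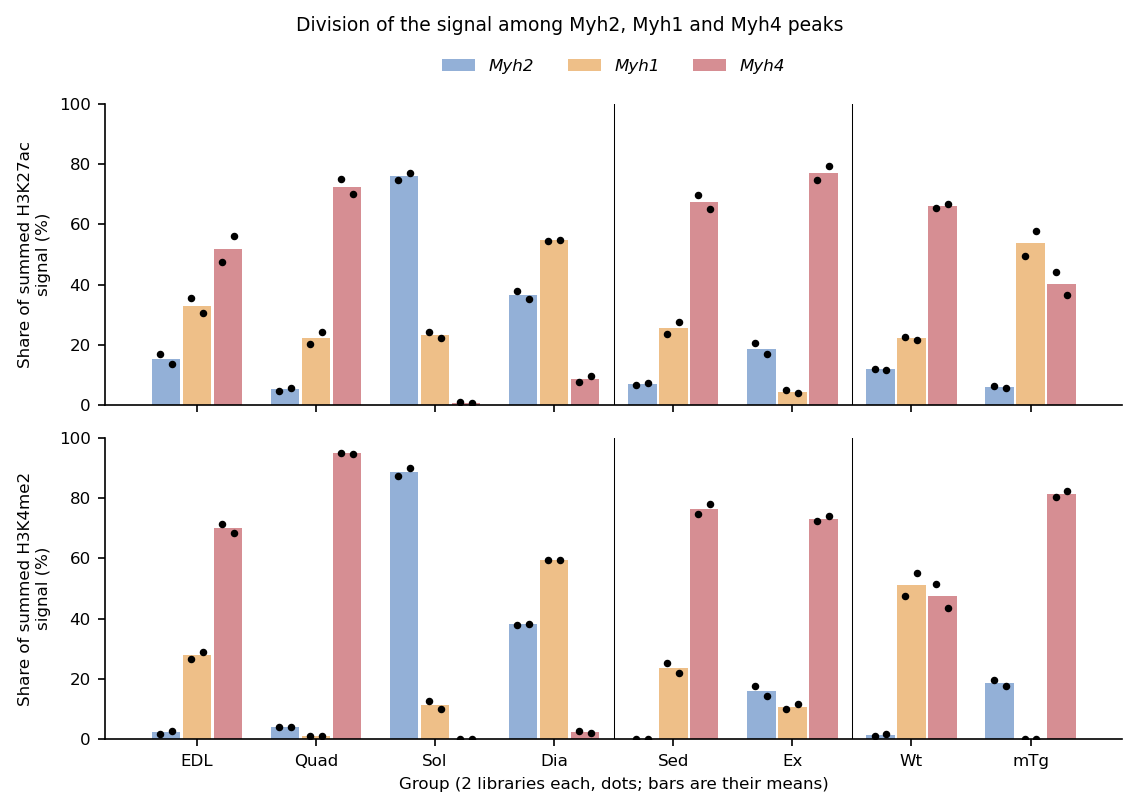
Share (%) of the summed, not per-kb, linear signal of Myh2, Myh1 and Myh4 peaks in each library, with H3K27ac above and H3K4me2 below. Bars are means of 2 libraries and dots the libraries. Myh4 leads in EDL and Quad, Myh2 in Sol and Myh1 in Dia for both marks, and the mTg bars for Myh1 stand at 53.6% for H3K27ac and 0 for H3K4me2.

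The same contrast was read from the strongest peak of each gene per kb of width, as the log2 level of Myh4 minus that of Myh2 in the same library. It was 2.30 and 1.79 in Quad and 0.83 and 1.22 in EDL, and −1.65 and −2.50 in Sol and −1.10 and −0.70 in Dia. All 4 limb fast muscle libraries were therefore above 0 and all 4 Sol and Dia libraries below. The other Quad groups were also positive, with 1.35 ± 0.39 in Sed, 0.43 ± 0.13 in Ex, 1.63 ± 0.05 in Wt and 0.73 ± 0.14 in mTg (SD, n = 2 each). However, the strongest Myh2 peak was not the same site in all groups. In Sol and Dia it was the domain over the gene, 10.4 and 8.58 kb wide. In EDL, Quad, Sed, Ex, Wt and mTg it was a peak of 1.51 to 2.84 kb before the gene.

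Acetylation at Myh4 and at Myh2 took different shapes. In Quad the Myh4 domain was a single 11.6-kb peak, chr11:67229116-67240753, with levels of 11.27 and 11.01, that ranked 190th by score, and 74.7% of its length lay before the gene start. In EDL a 15.6-kb Myh4 peak, chr11:67226425-67242000, had levels of 11.15 and 11.41 and lay 73.1% upstream. The upstream part was 69.8% in Wt, 83.0% in mTg and 52.7% in Sed. In these groups the IIb domain thus reached 7.67 to 11.4 kb before the start and 1.81 to 8.28 kb into the gene. In Ex and Dia it lay more inside the gene, with 46.7% of a 7.65-kb peak upstream in Ex, reaching 3.57 kb before the start, and 40.9% of a 4.76-kb peak in Dia, reaching 1.95 kb.

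The Myh2 domain was mostly inside its gene. In Sol it was a 10.4-kb peak, chr11:67168244-67178606, with levels of 10.05 and 9.83, that ranked 954th of 34173 by score, and 26.9% of it lay upstream. The corresponding Dia peak was 8.58 kb wide with levels of 10.37 and 10.13 and 28.1% upstream, and the EDL peak 7.86 kb wide with levels of 9.24 and 8.83 and 25.3% upstream. Quad had no H3K27ac peak over the Myh2 start. Apart from the gene itself, a 1.51- to 2.84-kb H3K27ac peak between 5.64 and 8.51 kb before Myh2 was called in every group, with or without a domain over the gene.

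The wide Myh1 peaks of Dia, EDL and mTg began before their gene, in the end of Myh2. In Dia 1 peak of 11.2 kb, chr11:67194945-67206117, had levels of 11.11 and 10.97 and ranked 399th of 33106 peaks by score. In EDL the peak was 11.7 kb wide with levels of 10.73 and 10.54, and 43.2% of it lay upstream of Myh1. Quad divided the same stretch into 3 peaks of 2.14 to 3.28 kb, the strongest inside the gene at 8.51 and 8.75. In Sed the main peak, 9.07 kb wide with 21.5% upstream, began after the end of Myh2, and the single Ex peak lay inside Myh1.

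**Figure D3:**
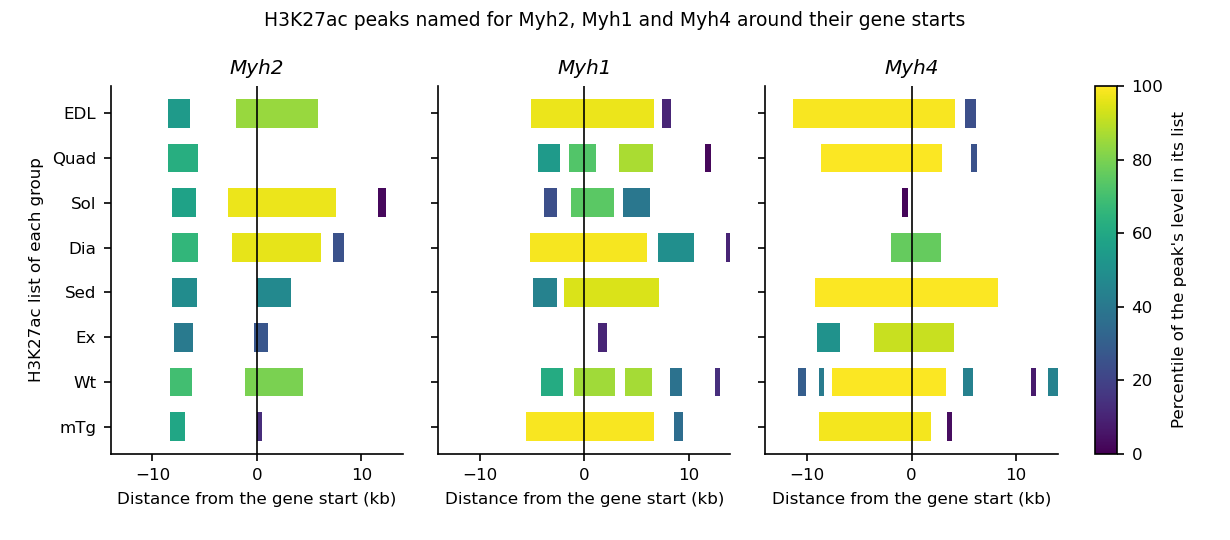
H3K27ac peaks named for Myh2, Myh1 and Myh4 in each group, drawn to scale within 14 kb of the gene start (vertical line) and coloured by the percentile of the peak's level in its list. The Myh4 peaks of EDL, Quad, Wt and mTg extend mainly to the left of the start and the Myh2 peaks of EDL, Sol and Dia mainly to the right.

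Myh4 in Sol and Dia was the low end of the range. Sol had a single 0.501-kb peak, chr11:67236924-67237424, which lay before the start without covering it, with levels of 4.02 and 2.97, and it ranked 33605th of 34173 by score. Dia had a 4.76-kb peak with levels of 8.42 and 8.58 that ranked 7904th. Thus a domain over the IIb promoter was called in Dia and not in Sol.

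Wheel running was compared with sedentary housing in lists where the authors had normalized all 4 libraries together after selecting changed H3K27ac regions on the same libraries. The tests here therefore describe how far the replicates separate and are not independent evidence. Of 2280 regions hypoacetylated in Ex, 4 lay in the cluster, and none of the 382 hyperacetylated regions did. All 4 were lower in Ex with an adjusted p under 0.05 (limma, Benjamini-Hochberg adjusted), as were 99.7% of the list. Libraries of Ex and Sed did not overlap in any of the 4, nor in 100% of the list. The selection of the list fixes both counts.

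The Myh4 region, chr11:67228583-67246094, had levels of 9.98 and 9.81 in Ex and 11.20 and 10.75 in Sed. It fell by 1.08 on the log2 scale (SE 0.21, adjusted p = 2.20e-05, limma), a linear loss of 52.7%, and ranked 52nd of 2280 by size of the fall, against a list median of −0.76. Loss at the IIb gene was thus among the larger ones of the list, in which its mean level was at percentile 98.7. Whether the size of a fall goes with level was not tested. The 24.9-kb region over 2310065F04Rik had levels of 11.46 and 11.08 in Ex and 12.36 and 12.12 in Sed. It fell by 0.97 (adjusted p = 8.60e-05), and the 9.47-kb region between it and Myh2 fell by 0.94 (adjusted p = 0.000120, limma for both). On the deposited values the noncoding interval therefore lost close to as much as Myh4.

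The Myh1 region, chr11:67198148-67207216, had levels of 8.81 and 8.35 in Ex and 9.52 and 9.35 in Sed and fell by 0.85 (SE 0.21, adjusted p = 0.000294, limma). Without Ex replicate 2 it fell by 0.62 with an adjusted p of 0.0602 (limma), and over the alternatives tried the adjusted p ranged from 1.23e-06 to 1. Centring each library on the median of the list removes the fall that the whole list shares. It left −0.30 at Myh4, −0.07 at Myh1, and −0.19 and −0.15 at the regions over and beside 2310065F04Rik, with no region called. Quantile normalization left −0.17 at Myh4 and 0 and −0.01 at these noncoding regions, and turned the Myh1 value to 0.03. No Myh2 region was in either exercise list.

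The separate peak lists gave another picture of Myh1, which went with the length called. Its share of H3K27ac was 23.7% and 27.6% in Sed and 4.89% and 3.83% in Ex, but 11.4 kb were called for it in Sed and 0.86 kb in Ex. Per kb the Myh1 share was 31.5% ± 2.71 in Sed and 26.9% ± 2.71 in Ex (SD, n = 2 each). In the jointly normalized regions, Myh1 as a percentage of Myh1 and Myh4 together was 23.7% and 27.5% in Sed and 30.7% and 26.7% in Ex, so the groups overlapped and no fall of Myh1 relative to Myh4 was seen there. The Myh2 share was 6.63% and 7.40% in Sed and 20.5% and 16.8% in Ex, over 5.58 and 3.18 kb. Per kb it was 17.6% ± 0.97 and 31.2% ± 2.11 (SD, n = 2 each). The strongest Myh2 peak stood at percentile 34.0 and 38.8 in the Sed libraries and 49.0 and 21.8 in Ex (level per kb), so the groups overlapped. For Myh4 these were 89.3 and 76.6 in Sed and 62.4 and 44.8 in Ex, and for Myh1 67.0 and 63.7, and 41.1 and 11.2. The higher Myh2 share thus went with lower percentiles of Myh4 and Myh1. Myh4 kept the largest share in both groups, at 67.3% ± 3.34 in Sed and 76.99% ± 3.35 in Ex, whereas per kb it was 50.8% ± 3.68 and 41.9% ± 4.82 (SD, n = 2 each), so its direction turned with the scale. For H3K4me2, Myh1 took 23.7% ± 2.33 in Sed and 10.7% ± 1.2 in Ex over 1.81 and 0.91 kb, and Myh2 had no peak in Sed and took 16.1% ± 2.29 in Ex (SD, n = 2 each).

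Other values moved alongside these. In Ex, replicate 1 was above replicate 2 at 11 of 13 cluster H3K27ac peaks, with a median gap of 0.52 on the log2 scale against 0.18 over the whole list. The best-peak percentile of the 5 fiber markers had a median of 81.0 in Ex and 88.3 in Sed. That of 4 endothelial markers (Pecam1, Cdh5, Kdr, Tek) was 82.7 in Ex and 62.9 in Sed, with individual values from 50.1 to 88.7 and from 47.2 to 69.9. Leukocyte markers with a peak numbered 4 in Ex and 3 in Sed, with medians of 36.3 and 17.8 and Cd68 without a peak in Sed. Their part in the cluster's decline was not tested.

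Pgc1a overexpression gave a different division. Of 1828 regions hyperacetylated in mTg, 1 lay in the cluster, the Myh1 region chr11:67194524-67206788, and none of the 844 hypoacetylated regions did. Its levels were 10.22 and 10.48 in mTg and 9.44 and 9.44 in Wt. It rose by 0.91 on the log2 scale (SE 0.13, adjusted p = 6.81e-07, limma), to 1.88 times the Wt level on the linear scale, and ranked 476th of 1828 by size, where the list median was 0.74. In this list 100% of regions passed the same threshold, and 100% had libraries that did not overlap, by the authors' selection. Both mTg libraries were thus above both Wt libraries at the IIx gene. Centring each library on the list median left 0.11 (adjusted p = 0.563, limma) and quantile normalization turned the value to −0.14 (adjusted p = 0.599, limma), and over the alternatives tried the adjusted p ranged from 1.21e-09 to 0.599.

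**Figure D4:**
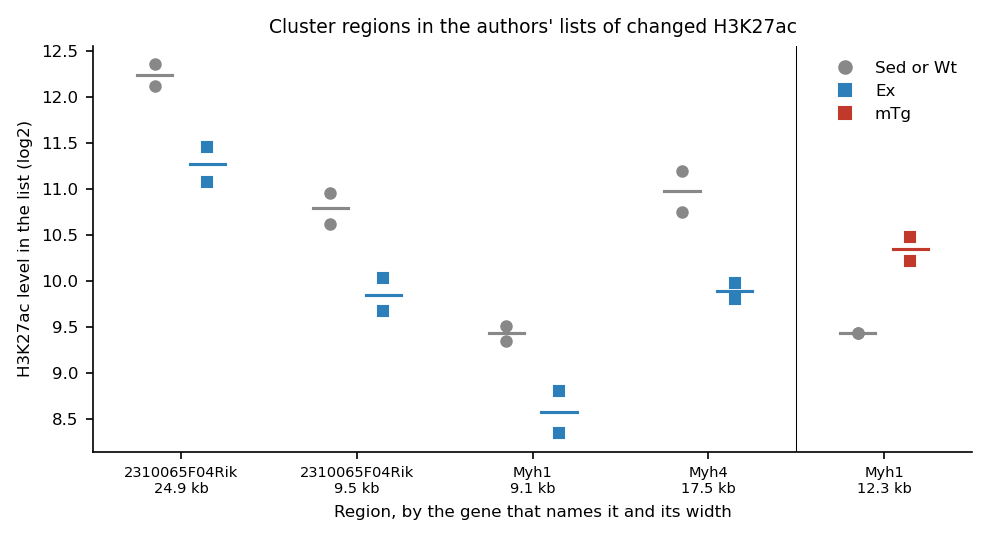
H3K27ac levels (log2, normalized within each list) of the 5 cluster regions in the lists of changed H3K27ac, with circles for Sed or Wt libraries, squares for Ex or mTg libraries and lines for the means. The 4 regions left of the vertical line are lower in both Ex libraries than in both Sed libraries, and the Myh1 region on the right is higher in both mTg libraries.

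In the peak lists the Myh1 share of H3K27ac was 22.6% and 21.6% in Wt and 49.4% and 57.8% in mTg, whereas Myh4 took 65.3% and 66.8% in Wt and 44.2% and 36.4% in mTg. Myh2 took 12.1% and 11.6% in Wt and 6.39% and 5.80% in mTg, so the IIa gene had the smallest share in both. Called length for Myh1 was 10.2 kb in Wt and 14.7 kb in mTg, and per kb its share was 28.7% ± 0.75 and 42.2% ± 5.51 (SD, n = 2 each). The mTg Myh1 peak was 1 domain of 12.3 kb that ranked 310th of 36169 by score, and the Wt list split the same stretch into peaks of at most 3.91 kb. By level per kb, the strongest Myh1 peak was at percentile 82.8 of its list in mTg and 87.9 in Wt. Libraries labelled Wt and mTg went the other way for H3K4me2. Myh1 took 47.6% and 55.1% in the libraries labelled Wt and had no H3K4me2 peak in those labelled mTg, where Myh4 took 80.5% and 82.4%. The summed H3K4me2 share of Myh1 also varied among the sedentary wild-type quadriceps groups, from 1.1% in Quad through 23.7% in Sed to 51.3% in those labelled Wt. That range was close to the whole summed difference between Wt and mTg. Per kb the share was 22.2% ± 1.60 in Quad, 50.7% ± 3.23 in Sed and 40.2% ± 2.93 in those labelled Wt (SD, n = 2 each). The lowest depth of the histone libraries, 6.41 M tags, belonged to a library labelled mTg of this mark, and the list labelled mTg had the fewest H3K4me2 peaks, 27527. Fiber marker percentiles were 96.5 in mTg and 97.6 in Wt for H3K27ac, and endothelial ones 52.3 and 74.8. The 2 fibro-adipogenic markers were at 49.6 in mTg and 85.8 in Wt, and leukocyte markers at 35.4 (3 of 4 with a peak) and 53.3 (4 of 4). The part of these values in the shift was not tested.

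By summed signal, the Myh4 share was highest in Ex (76.99%), followed by Quad, Sed and Wt. EDL (51.8% ± 5.94), mTg (40.3% ± 5.52), Dia (8.74% ± 1.36) and Sol (0.721% ± 0.28) came after, in that order (SD, n = 2 each). On this scale libraries of Ex and Quad overlapped, as did those of Sed and Wt, so these neighbours did not differ beyond their spread. Libraries of Quad (75.2% and 69.9%) and Sed (69.7% and 65.0%) did not overlap although both were sedentary wild-type quadriceps, so 2 libraries can stand apart from 2 others without a labelled difference. Libraries of EDL and mTg, of mTg and Dia, and of Dia and Sol did not overlap by summed signal. Per kb the order was Quad (60.4%), Wt (54.4%), Sed (50.8%), EDL (43.1%), Ex (41.9%), mTg (39.5%), Dia (21.7%) and Sol (15.4%). On that scale libraries of EDL (39.0% and 47.3%) and mTg (42.8% and 36.2%) overlapped. Those of Ex (38.5% and 45.3%) lay below those of Quad (63.6% and 57.2%).

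Both marks were set against each other over the whole window. H3K27ac peaks covered 49.2 kb (Ex) to 81.6 kb (EDL), and H3K4me2 peaks 20.1 kb (labelled mTg) to 58.1 kb (EDL). Of the H3K4me2 length, 55.4% to 83.6% lay inside H3K27ac, and of the H3K27ac length 15.8% to 59.5% lay inside H3K4me2. The lower ends for H3K4me2 were those of the list labelled mTg, and at an adjusted p under 0.001 its length was 10.6 kb and the overlap 6.48% of the H3K27ac length. Most of the dimethylated length was therefore also acetylated, and the reverse held in EDL and Quad only, where the overlap was 59.5% and 53.3%. EDL and Quad shared 60.4 kb of H3K27ac, 74.1% of the EDL length and 92.2% of the Quad length, whereas Sol and Quad shared 36.3 kb, 67.0% of the Sol length and 55.3% of the Quad length.

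Open chromatin and factor binding were available as lists called by the authors. ATAC-seq (transposase-accessible chromatin) of control Quad gave 17 peaks in the window, and 15 of them overlapped an H3K27ac peak of some group. The highest signal, 26.8 tags scaled to a common library size (list median 7.15), was at chr11:67115017-67115211, which overlaps an exon of 2310065F04Rik inside the 25.97-kb Quad domain, and the next, 25.6, stood just before that gene. Of the adult genes, Myh4 had a peak over its promoter, chr11:67237630-67237824 with a signal of 12.4, and Myh1 had one centred 4789 bases inside the gene, chr11:67204794-67204988 with 11.3, over the end of a coding exon and the intron after it. No ATAC peak lay over the Myh2 or Myh1 promoter in control Quad. The Myh4 peak overlaps the promoter printed above and takes in its complete 20-base run and its MEF2 match. The other 2 sites are shown because they are the strongest of the window and the one inside Myh1, on the plus strand with CANNTG in capitals.
ATAC site in 2310065F04Rik: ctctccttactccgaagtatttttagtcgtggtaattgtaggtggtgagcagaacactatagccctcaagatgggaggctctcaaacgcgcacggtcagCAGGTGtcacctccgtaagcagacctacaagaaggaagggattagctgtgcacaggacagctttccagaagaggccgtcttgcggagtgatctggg
ATAC site in Myh1: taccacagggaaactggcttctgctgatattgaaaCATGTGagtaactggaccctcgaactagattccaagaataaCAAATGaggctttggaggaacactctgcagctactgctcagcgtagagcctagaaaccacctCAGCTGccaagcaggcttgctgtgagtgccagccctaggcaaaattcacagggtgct
The first holds 1 match and the second 3, and 65.6% of the 44911 control ATAC peaks hold at least 1.

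MED1, a subunit of the mediator complex that bridges enhancers and RNA polymerase, and the calcineurin-dependent factor NFAT were each profiled in 1 library per muscle, pooled from several animals, so these values carry no replicate error. Quad MED1 had 4 peaks in the window. The one at the Myh4 start, chr11:67237863-67238073, had a score of 35.1 and ranked 11th of 3593, and the others were a peak at the Myh1 start (8.30) and 2 before Myh2 (8.94 and 5.75), against a list median of 6.39. All 4 overlapped H3K27ac peaks of at least 6 groups. EDL (834 MED1 peaks in all) and Dia (2145) had none in the window, and Sol had 2, both beyond the end of Myh13 and outside every H3K27ac peak. The mediator signal of the cluster in Quad was therefore highest at the IIb promoter.

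NFAT in Sol had 6 peaks in the window of 39661, and NFAT in Quad, with 485 peaks in all, had none. The strongest, chr11:67174804-67175006, was centred 3878 bases inside Myh2, over an intron and the coding exon that follows, with a score of 26.6 and rank 84. It sits in the 10.4-kb H3K27ac domain of Sol Myh2, and the Dia, EDL and Wt domains over Myh2 also overlap it. It is shown on the plus strand, with the 1 match to GGAAA in capitals (here on the minus strand, so read as TTTCC), a motif held by 52.5% of the Sol NFAT peaks.
NFAT site in Myh2: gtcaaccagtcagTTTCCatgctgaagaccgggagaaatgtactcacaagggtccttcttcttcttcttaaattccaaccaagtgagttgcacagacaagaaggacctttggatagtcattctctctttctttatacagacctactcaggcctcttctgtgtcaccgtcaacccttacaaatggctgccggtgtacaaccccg
Of the other 5, 2 lay inside Myh8, 1 between Myh4 and Myh8, 1 before Myh3 and 1 beyond Myh13, with scores of 12.3 to 20.5 against a list median of 14.3. In these lists the strongest Sol NFAT site of the window lay in the IIa gene, and the strongest Quad MED1 site at the start of the IIb gene. No test compares the 2 muscles because the lists differ in the number of peaks called.

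Genes of the same fibers were read beside the cluster. Of 9 partners of fast fibers, 4 had a region hypoacetylated in Ex, namely Myl1 (a fast light chain), Actn3 (alpha-actinin of fast fibers), Pvalb (the calcium buffer parvalbumin) and Mybpc2 (fast myosin-binding protein C). Of 9 partners of slow fibers, 1 did (Myoz2), and of 8 other myosin heavy chain genes, none did. Of all genes with an H3K27ac peak in any list, 9.32% had such a region, as did 2 of the 5 fiber markers (Des and Ttn). In Sed, H3K27ac peaks were called for 8 of 9 fast partners, 4 of 9 slow partners and 4 of the 8 other myosin genes. The counts therefore do not compare sets with equal room for a loss. Slow-fiber Myh7 and Myh7b had H3K27ac peaks in Sol and Dia alone of the 8 groups, and Myh6 and Myh15 had none.

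The best-peak percentile over the 8 H3K27ac lists was used to name the genes most like Myh4 and Myh2 among 14157. Closest to Myh4 was Actn3, with Pearson's r of 0.99 across the 8 lists and percentiles from 37.0 in Sol to 97.4 in Quad, followed by Uts2r, Gm10440, Foxj1 and 4933406J10Rik. Closest to Myh2 were Snora74a (0.97), Bex6, C730036E19Rik, Fa2h and Mir29b-1. A list without a peak of the gene counted as 0, which enters these values. It did so for Snora74a and Fa2h in Sed and Ex, and for Foxj1 and 4933406J10Rik in Sol. These correlations are descriptions across 8 lists, 5 of them from quadriceps, and carry no p-value.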

How the data were processed

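H3K27ac and H3K4me2 ChIP-seq peaks of 8 mouse muscle groups (2 libraries per mark each), control Quad ATAC-seq, MED1 and NFAT peaks were read from the deposited lists. Samples were grouped by title. Per the submitters' processing notes, the authors aligned reads with Bowtie 1.2, while the methods name another Bowtie version for ChIP-seq and Bowtie2 for ATAC-seq. ChIP-seq reads were aligned to mm10. The authors made HOMER tag directories with 1 tag per position, and called peaks over both replicates against input with DESeq2 within HOMER.

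Deposited tag columns hold log2 levels normalized by the authors within each list, to total tags in the peak lists and not in the differential lists. The deposited peak score, from the authors' HOMER run, is tags scaled to a common library size, the deposited ATAC signal likewise, and its ratio is to the local background. The authors' log2 fold over input and adjusted p-values were used here only to filter peaks, and their columns comparing Ex with Sed and mTg with Wt were not used. No column was left without a sample (0). The exercise and Pgc1a ATAC and footprint intervals are not mm10 and were not used. Any transposase shift of ATAC reads is not given in the sources used here.

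Members and comparison lists were chosen with earlier results of these data known. The genes named were the 6 myosin genes, the neighbours within 50 kb, listed fiber partners with a changed region or at the extremes of their list, and the 5 genes most like Myh4 or Myh2. Level per kb is log2 level minus log2 of width in kb. The differential lists were fitted whole with limma 3.58.1 (R 4.3.3, two-sided, Benjamini-Hochberg), and all else used Python 3.11.15 with pandas 2.3.3. The fit was tested on simulated data. Overlaps needed at least 1 base. Replicate numbers did not pair the samples (correlation of same-numbered deviations 0.11 in the exercise and −0.039 in the Pgc1a list, 2 pairs each). Depth was read as total tags from the file headers and was 11.7 to 24.2 M for H3K27ac, 6.41 to 22.7 M for H3K4me2 and 7.72 to 22.9 M for input, and peaks from deeper libraries are called with less counting error. Factor libraries are single, and their depth is unknown here. Alternatives were stricter peak filters, other level scales, left-out replicates, a replicate block, other scalings and an intensity trend.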

Additional observations from a re-analysis of the deposited data

Results flagged for a closer look

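The level of Myh4 minus that of Myh2, per kb of the strongest H3K27ac peak, stood out because every library of some muscles lay on one side of 0 and every library of others on the opposite side. The mean difference was 2.04 in Quad and 1.03 in EDL, and −2.08 in Sol and −0.90 in Dia (log2, 2 libraries each). The Myh2 peak read was the domain over the gene in Sol and Dia, and a narrower peak before the gene in Quad and EDL. The difference between muscles was not tested, since each list was normalized on its own.

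The share of the adult fast signal at Myh1 stood out because its direction was opposite between contrasts and between marks. For H3K27ac it was 31.5 percentage points higher in mTg than in Wt and fell by 21.3 percentage points from Sed to Ex. The second value went with the length called for Myh1, 0.86 kb in Ex and 11.4 kb in Sed, and per kb the share fell by 4.62 percentage points. In the jointly normalized regions Myh1 fell by 0.85 and Myh4 by 1.08 (log2), so a fall of Myh1 relative to Myh4 was not seen there. For H3K4me2 the Myh1 share fell by 51.3 percentage points from the libraries labelled Wt to those labelled mTg, while it ranged from 1.1% to 51.3% among the 3 sedentary wild-type quadriceps groups. Per kb it was 22.2% in Quad, 50.7% in Sed and 40.2% in those labelled Wt. These differences between contrasts and between marks were not tested.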

How the results depend on the processing

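Peaks of the cluster numbered 245 over the 16 peak lists and covered 849.6 kb in all, summed over lists. Requiring an adjusted p under 0.001 left 130 peaks, as did counting only peaks named for a member (130 peaks, 378 kb), while the 4-fold filter kept both within 1.5 times. The percentile of Myh4 in Quad H3K27ac, 96.7 per kb, was 99.5 by level without division by width and 99.5 by peak score, and without 1 replicate 95.1 to 97.7. Myh4 minus Myh2 in Quad was 2.04 per kb, 4.08 without division by width, and 1.79 to 2.30 without 1 replicate. The overlap with H3K4me2 in Quad, 53.3% of the H3K27ac length, was 54.8% at 4-fold in both marks, and that of the groups labelled mTg went from 15.8% to 6.48% at an adjusted p under 0.001.

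Of the 4 exercise regions, 3 or 4 stayed under the threshold without 1 replicate. The exception was Myh1 without Ex replicate 2. The 1 Pgc1a region stayed (1 called) without any replicate. With the replicate block, 4 and 1 regions were called, so it changed no call. Centring each library on the list median called 0 regions in both lists, and so did quantile normalization. Both lists hold changes in 1 direction, so these scalings remove the shared shift by construction, and the Myh1 region then reversed under quantile normalization, to 0.0347 for Ex and −0.14 for mTg (log2). An intensity trend changed no call. For Myh4 minus Myh2 no alternative turned the direction in any group. In all, 21 MED1, NFAT and ATAC peaks overlapped a histone peak at either minimum overlap, and no level could be compared between lists.

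Alternatives for the shares were chosen after seeing the data, and none turned the direction of these 4 differences. Per kb of called length, the Myh4 share in Quad minus Sol (71.8 percentage points) was 45.0, and the Myh1 share was −4.62 for Ex minus Sed (−21.3), 13.5 for mTg minus Wt (31.5) and −40.2 for H3K4me2 of the libraries labelled mTg minus Wt (−51.3). The second was −18.1 at 4-fold, and the last −57.1 at an adjusted p under 0.001. Without 1 replicate the 4 ranged from 69.4 to 74.3, −23.8 to −18.8, 26.8 to 36.2 and −55.1 to −47.6.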
